A study of Mus musculus with 4 samples.

Results

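The aryl hydrocarbon receptor gene, its partner and its best known target genes were followed in Hepa1c1c7, a mouse hepatoma cell line much used to study this receptor. The members are 7 genes chosen by name: Ahr, Arnt, Ahrr, Tiparp, Cyp1a1, Cyp1a2 and Cyp1b1. Every probe whose accession is a RefSeq transcript of a member was taken, which gave 9 of the 41174 probes on the array and covered all 7 genes. Of these, 5 genes were among the 15537 that were bright enough to be tested.

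The study held 4 RNA samples of this line. In 2 of them the cells had been given 100 µM diethyl maleate (DEM), and in the other 2 the solvent dimethyl sulfoxide (DMSO), for 6 hours in each case. DEM binds glutathione and other thiols, and the series title names it as an activator of NRF2, the transcription factor of antioxidant genes. RNA samples are called independent in the labels, which do not mention separate cultures. The p-values below therefore reflect how far these RNA samples lie apart, and that distance can be technical. All samples came from a single line, the RNA extraction note alone speaks of liver tissue, and no label names exposure to a ligand of the receptor such as a dioxin.

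The receptor (AHR) waits in the cytoplasm, bound to HSP90 and co-chaperones, until a planar aromatic ligand binds it. It then enters the nucleus, pairs with ARNT and binds DNA at the core sequence GCGTG, from which it switches on Cyp1a1, Cyp1a2 and Cyp1b1, the genes of P450 enzymes that oxidise aromatic compounds. The receptor also induces its own brakes, Ahrr and Tiparp. A further set of its target genes, among them Nqo1, is known to answer to NRF2 as well, and the arrays hold both kinds of target.

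On each array 50.4% to 52.6% of probes were well above background, which is the scanner software's flag for a spot clearly brighter than its surroundings, and 0 spots were saturated. Of the 10 hepatocyte or hepatoma markers with a probe, 6 were well above background on all 4 arrays, Alb and Afp among them. Krt8 of that list read 227000 and 205000 in DMSO and 223000 and 211000 in DEM. Hnf4a, Ttr and Apoa1 were well above background on 0 arrays. Of the 5 endothelial markers with a probe, Pecam1, Cdh5, Kdr and Tek were below that level on all 4 arrays. Lyve1 was above it on all 4, at 62.9 and 57 in DMSO and 54.5 and 53.3 in DEM. Markers above it on all 4 arrays were 2 of 5 for macrophages, 4 of 6 for fibroblasts and 3 of 4 for cholangiocytes. The cholangiocyte marker Krt7 read 81600 and 85800 in DMSO and 69600 and 79100 in DEM. The fibroblast marker Col1a1 read 37350 and 40888 in DMSO and 33075 and 38800 in DEM. Alb read 8840 and 7070 in DMSO and 9550 and 8310 in DEM, and the other tested markers of these lists were dimmer than Alb. Of the markers of any list limma called 0, and 5 had an unadjusted p under 0.05, as had 19.2% of all genes tested. Signals are given below in the scanner's intensity units for each array. Levels and changes on the log2 scale are relative to the 75th percentile of the same array, and a change is DEM minus DMSO with its standard error and 95% interval from limma (n = 2 arrays per group).

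None of the 5 tested members passed an adjusted p of 0.05: limma with Benjamini-Hochberg adjustment called 0 higher and 0 lower, and 0 members reached an unadjusted p under 0.05. Across all genes tested 1.22% were called, 0.714% higher and 0.508% lower, and 19.2% had an unadjusted p under 0.05. The members' share, 0 of 5, is near that background. The arrays of the groups did not overlap for 1 of the 5 members, Arnt, which lay higher in DEM, against 50.6% of all genes, 24.9% higher and 25.6% lower. The median log2 change of the tested members was 0.19, beside −0.01 for all genes tested.

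**Figure D1:**
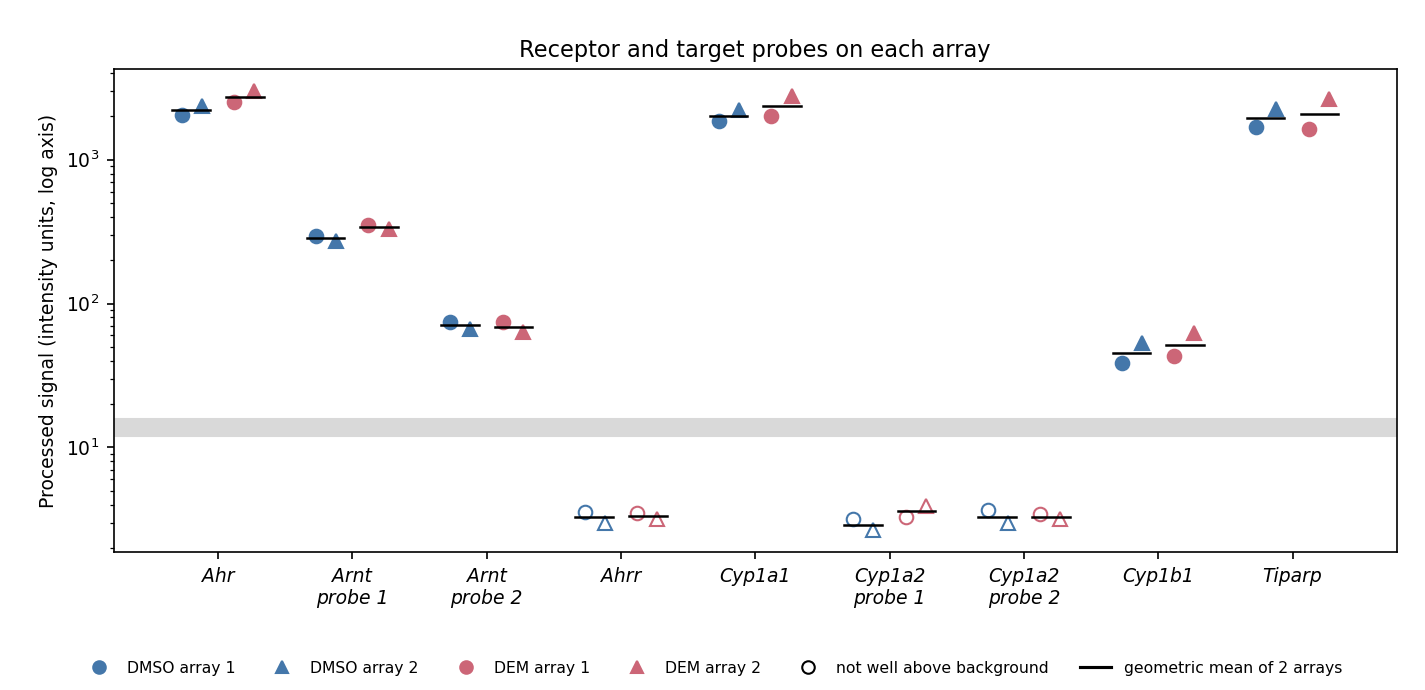
Processed signal of each member probe on each array, in the scanner's intensity units on a log axis; circles and triangles are arrays 1 and 2 of a group, open symbols are spots not well above background, bars are the geometric mean of the 2 arrays, and the grey band spans the lowest well-above-background signals of the 4 arrays (12 to 15.7). The probes of Ahrr and Cyp1a2 lie under the band on all 4 arrays, and the triangles of Ahr, Cyp1a1, Cyp1b1 and Tiparp stand above the circles in both groups.

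The receptor gene itself was expressed in both groups. The Ahr probe (accession NM_013464) gave mean signals of 2061 and 2358 on DMSO arrays 1 and 2 and of 2511 and 3006 on DEM arrays 1 and 2. Both DEM arrays were brighter, but once each array was scaled the lower DEM level and the higher DMSO level met at 2.20, so the groups overlapped. The log2 level was 2.08 ± 0.17 (SD, n = 2) in DMSO and 2.35 ± 0.22 (SD, n = 2) in DEM. The change was 0.28 ± 0.16, with an interval from −0.15 to 0.70 and a limma adjusted p of 0.427.

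This probe is printed 10 times on every array, which shows how precisely a single array reads it. The coefficient of variation over its unflagged spots ran from 1.24% to 3.75%, with 8 to 10 spots kept per array. In log2 units the spots of an array had an SD of 0.02 to 0.05. The arrays of one group lay further apart, by 0.25 in DMSO and 0.31 in DEM, so the spread between samples and not that between spots set the standard error.

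ARNT is the partner without which the receptor does not bind its DNA element, and it also pairs with the hypoxia factors. The brighter Arnt probe (NM_001037737) gave 294 and 274 on the DMSO arrays and 350 and 328 on the DEM arrays, and the groups did not overlap. Its log2 change was 0.21 ± 0.08, with an interval from −0.01 to 0.44 and a limma adjusted p of 0.282. A dimmer probe with the same accession gave 74.2 and 66.9 in DMSO and 74.5 and 63.2 in DEM, with overlapping groups and a difference of −0.08 ± 0.11 in log2 (limma adjusted p = 0.766). The probes thus differed in sign, and the mean of both gave a change of 0.07 (limma adjusted p = 0.765).

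Ahrr encodes the receptor's repressor, which competes for ARNT, and its transcript was not detectable in either group. Its probe (NM_009644) read 3.55 and 3 in DMSO and 3.47 and 3.19 in DEM, and was not well above background on any of the 4 arrays. The lowest well-above-background signals were 13.5 and 12 on the DMSO arrays and 15.7 and 14.6 on the DEM arrays. With both groups below background no fold was formed for this gene.

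Tiparp encodes an ADP-ribosyltransferase that marks the receptor and dampens its signal. Its probe (NM_178892) read 1690 and 2240 in DMSO and 1640 and 2650 in DEM. The lowest and the highest of these signals were both DEM arrays, and the DMSO arrays lay between them. The log2 level was 1.90 ± 0.32 (SD, n = 2) in DMSO and 1.96 ± 0.53 (SD, n = 2) in DEM. The change was 0.06 ± 0.31 (limma adjusted p = 0.947), with an interval from −0.77 to 0.88.

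Cyp1a1 is the target by which receptor activity is usually read. Its probe (NM_009992) read 1850 and 2200 in DMSO and 2020 and 2770 in DEM, well above background on all 4 arrays. The lower DEM array sat between the DMSO arrays. The change was 0.19 ± 0.22 on the log2 scale, with a limma adjusted p of 0.704. Its interval ran from −0.39 to 0.77, so a rise of more than 1.70-fold and a fall of more than 1.31-fold lay outside it.

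Cyp1b1 encodes a P450 that hydroxylates oestrogens and polycyclic aromatic compounds. Its probe (NM_009994) was dim, at 38.4 and 53.0 in DMSO and 43.3 and 62.1 in DEM, yet well above background on every array. Each group had a lower and a higher array and the groups overlapped. The log2 change was 0.16 ± 0.27, with an interval from −0.58 to 0.89 (limma adjusted p = 0.807).

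Cyp1a2, a P450 gene of liver that lies head to head with Cyp1a1, was not detectable with either of its probes (NM_009993). The first read 3.16 and 2.66 in DMSO and 3.30 and 3.91 in DEM, and the second 3.67 and 2.96 in DMSO and 3.42 and 3.18 in DEM. All of these signals were under the lowest well-above-background signal of their array. Of the 3 P450 members, Cyp1a1 and Cyp1b1 were therefore measured in both groups and Cyp1a2 in neither.

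The stretch before the transcription start is shown for the 5 target genes, because the receptor is known to switch these genes on. Promoter windows were present for 6 of the 7 members. The sequences are RefSeq's on GRCm38.p6, each the 250 bases before the start, read 5′ to 3′ in the direction of the gene. Capitals mark GCGTG, or CACGC where the match is on the opposite strand, and the Cyp1a2 window has none.
Cyp1a1, chr9:57697363-57697612, plus strand: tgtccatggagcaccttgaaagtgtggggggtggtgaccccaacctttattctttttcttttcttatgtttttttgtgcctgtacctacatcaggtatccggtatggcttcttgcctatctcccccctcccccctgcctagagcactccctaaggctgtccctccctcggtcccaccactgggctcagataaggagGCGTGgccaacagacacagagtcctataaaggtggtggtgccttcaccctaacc
Cyp1a2, chr9:57683656-57683905, minus strand: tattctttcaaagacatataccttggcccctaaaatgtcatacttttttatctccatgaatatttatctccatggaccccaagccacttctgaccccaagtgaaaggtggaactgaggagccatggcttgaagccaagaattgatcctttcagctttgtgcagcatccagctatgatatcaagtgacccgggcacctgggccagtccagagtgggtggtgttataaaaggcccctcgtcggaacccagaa
Cyp1b1, chr17:79715062-79715311, minus strand: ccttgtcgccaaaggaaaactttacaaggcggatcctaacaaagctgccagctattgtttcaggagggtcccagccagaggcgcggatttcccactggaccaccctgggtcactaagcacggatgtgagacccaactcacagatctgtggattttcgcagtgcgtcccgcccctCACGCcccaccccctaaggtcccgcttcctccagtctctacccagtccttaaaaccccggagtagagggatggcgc
Tiparp, chr3:65528197-65528446, plus strand: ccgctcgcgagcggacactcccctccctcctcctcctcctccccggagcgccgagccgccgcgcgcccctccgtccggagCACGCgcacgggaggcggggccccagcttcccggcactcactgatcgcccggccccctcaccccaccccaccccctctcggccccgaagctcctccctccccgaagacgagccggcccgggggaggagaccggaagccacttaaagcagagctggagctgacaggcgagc
Ahrr, chr13:74292332-74292581, minus strand: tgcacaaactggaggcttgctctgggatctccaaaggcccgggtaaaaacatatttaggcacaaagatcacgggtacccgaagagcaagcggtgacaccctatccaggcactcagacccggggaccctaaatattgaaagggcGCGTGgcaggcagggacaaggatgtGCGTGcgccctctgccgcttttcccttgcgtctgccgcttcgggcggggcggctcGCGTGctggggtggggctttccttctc

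GCGTG was found on either strand in 5 of the 6 windows, and in 28.2% of 32851 promoter windows of the same length. The match in Cyp1a1 starts 54 bases before the start site, that in Cyp1b1 at 76 and that in Tiparp at 170. Arnt, the receptor's partner, whose window is not shown, supplies another of the 5, with a match at 29. Ahrr has 3 matches, and the one that starts 27 bases before the start belongs to the longer form TNGCGTG, which 4.1% of all windows hold and which contains GCGTG. The Cyp1a2 window held no match to GCGTG. The antioxidant response core TGACNNNGC, searched on both strands, was found in 1 of the 6 windows, that of Arnt, with 2 matches, and in 10.2% of all windows. These matches describe letters in a short window and do not show binding, and the enhancer through which the receptor is known to induce Cyp1a1 lies farther upstream than the window reaches.

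For Cyp1a1, Cyp1b1 and Tiparp the arrays of each group differed more than the groups did. For Ahr this held in DEM (0.31, against a change of 0.28) but not in DMSO (0.25), and for Arnt it held in neither group. The array numbered 2 lay above the array numbered 1 in both groups for 4 of the 5 members, as it did for 29.6% of all genes tested. For Tiparp the difference between these arrays was 0.46 on the log2 scale in DMSO and 0.74 in DEM, larger than for 91.9% and 97.2% of all genes. For Cyp1b1 it was 0.52 and 0.57, larger than for 93.7% and 94.7% of genes. For Cyp1a1 it was 0.30 and 0.51, larger than for 82.8% and 93.1%.

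The median size of that difference over all genes was 0.13 in DMSO and 0.13 in DEM. Ahr had 0.25 and 0.31, and Arnt ran slightly the other way with −0.05 and −0.04. For Ahr, Cyp1a1, Cyp1b1 and Tiparp the mean of the 2 differences exceeded the size of the change with DEM, as it did for 18.8% of all genes. That share keeps the sign of the differences and leaves out genes whose mean difference was negative. The share in either direction is therefore at least as large. For Ahr the excess was slight (0.279 against 0.277). These 4 genes kept array 2 above array 1 in both groups under quantile normalization, median scaling, spike-in scaling and normexp background correction. With normexp, whose offset shrinks dim probes, the differences of Cyp1b1 were 0.22 and 0.22. What the arrays of one number share beyond the number is not stated in the labels. With the replicate number as a block the standard error was 0.07 for Ahr, 0.09 for Cyp1a1, 0.07 for Cyp1b1 and 0.10 for Tiparp, and limma still called 0 members.

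**Figure D2:**
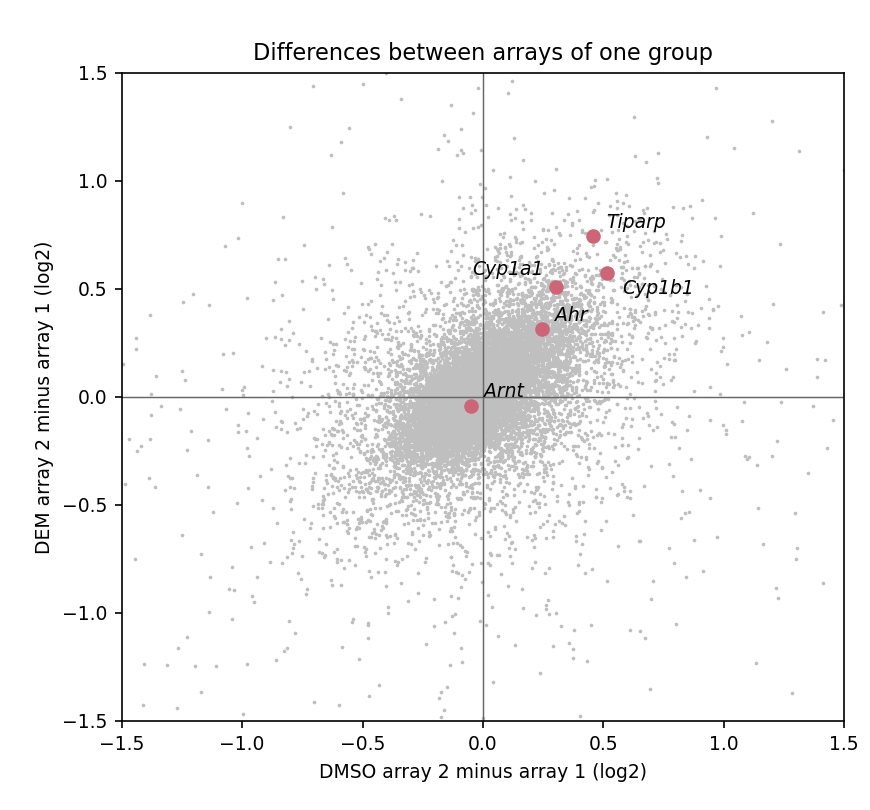
Difference between the arrays of a group, array 2 minus array 1, on the log2 scale, in DMSO (horizontal) and DEM (vertical); grey points are the genes tested, of which 195 lie beyond the axes, and red points are the 5 tested members. Tiparp (0.46 and 0.74), Cyp1b1 (0.52 and 0.57) and Cyp1a1 (0.30 and 0.51) lie at the upper right, and Arnt (−0.05 and −0.04) lies near the origin.

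The direction of the targets depended on which array was left out. Without DEM replicate 2 the log2 change was −0.066 for Cyp1a1, −0.13 for Cyp1b1 and −0.31 for Tiparp. Without DEM replicate 1 the same genes gave 0.44, 0.45 and 0.43. Without DMSO replicate 1 the change was 0.037 for Cyp1a1, −0.10 for Cyp1b1 and −0.17 for Tiparp. Without DMSO replicate 2 it was 0.34, 0.42 and 0.29. Spike-in scaling gave −0.017 for Tiparp. Ahr and Arnt stayed positive under all 16 alternatives, at 0.12 to 0.43 and 0.07 to 0.36. None of these values was called.

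Among other known targets of the receptor, 3 were called higher: Nqo1, Aldh3a1 and Gsta1. Of the 16 listed, 12 could be tested, of which 0 were called lower and 9 missed the threshold. Their median log2 change was −0.06 beside −0.01 for all genes, of which 0.714% were called higher and 0.508% lower. The list was chosen with earlier results of these data known. In it the groups did not overlap for 4 genes higher and 5 lower, beside 24.9% and 25.6% of all genes. Nqo1, which reduces quinones, read 1680 and 1460 in DMSO and 8550 and 7900 in DEM, which is 2.35 ± 0.10 higher on the log2 scale (limma adjusted p = 0.0125). Aldh3a1, an aldehyde dehydrogenase, read 16.5 and 15.2 in DMSO and 63.2 and 55.0 in DEM, and was well above background on 3 arrays. Its log2 change was 1.85 ± 0.10 (limma adjusted p = 0.0229), and 0.67 after normexp. Gsta1, a glutathione transferase, read 5.90 and 6.08 in DMSO, not well above background, and 151 and 132 in DEM, which makes it at least 10.8-fold higher. It entered the test only through its DEM arrays. Its limma adjusted p (0.00442) therefore rests on DMSO values below background and is no support for the rise. After normexp, whose offset shrinks dim probes, the log2 change of Gsta1 was 1.53. The bound sets the DEM mean against the lowest well-above-background signal of each DMSO array. Gsta1 has close paralogs, and signal shared with them was not tested.

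Without DMSO replicate 1 the limma adjusted p was 0.143 for Nqo1, 0.167 for Aldh3a1 and 0.0701 for Gsta1. Without DMSO replicate 2 it was 0.144, 0.208 and 0.127. No gene of the whole table was called in either of those fits, where unadjusted p-values under 0.05 belonged to 983 higher and 1130 lower genes without DMSO replicate 1 and to 844 and 1171 without DMSO replicate 2. With no filter on dim probes the limma adjusted p was 0.202 for Nqo1 and Aldh3a1 and 0.105 for Gsta1, and again no gene was called. The size of the change moved little, to 2.43 and 2.28 for Nqo1. The lone DMSO sample is assumed there to vary like the DEM samples.

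Other genes of that list did not pass the test. Il6, an inflammatory cytokine, read 233 and 340.2 in DMSO and 95.6 and 116.5 in DEM, a difference of −1.46 ± 0.25 in log2 (limma adjusted p = 0.0842). It was called in 7 of the 16 alternatives, among them median scaling (limma adjusted p = 0.0248) and normexp (0.0445). Ugt1a6b, a glucuronidating enzyme named after its value was seen, read 1300 and 896 in DMSO and 2930 and 2320 in DEM. Its difference was 1.23 ± 0.21 in log2 (limma adjusted p = 0.0830), and it was called in 6 of the 16 alternatives. Ugt1a6a and Ugt1a7c of the same list had no probe, and signal shared with them was not tested. Serpinb2, also named after its value was seen, read 84.9 and 86.5 in DMSO and 60.5 and 48.6 in DEM. Its difference was −0.70 ± 0.12 in log2 (limma adjusted p = 0.0886), its other probe gave −0.77, and it was called in 0 of the 16 alternatives.

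The changes of Cyp1a1, Cyp1b1 and Tiparp were set against that of Nqo1 as a description, since Nqo1 was taken as a called gene. Relative to Cyp1a1, Nqo1 changed by 2.16 more on the log2 scale, relative to Cyp1b1 by 2.19 and relative to Tiparp by 2.29. An exact two-sided permutation test of 2 against 2 arrays cannot go below p = 0.333, so it could not have passed the threshold in any of these 3 comparisons and says nothing of them. The 95% interval of Nqo1, from 2.08 to 2.62, lay wholly above those of Cyp1a1 (−0.39 to 0.77), Cyp1b1 (−0.58 to 0.89) and Tiparp (−0.77 to 0.88). That separation is no test of a difference either, since Nqo1 was picked because it was called.

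**Figure D3:**
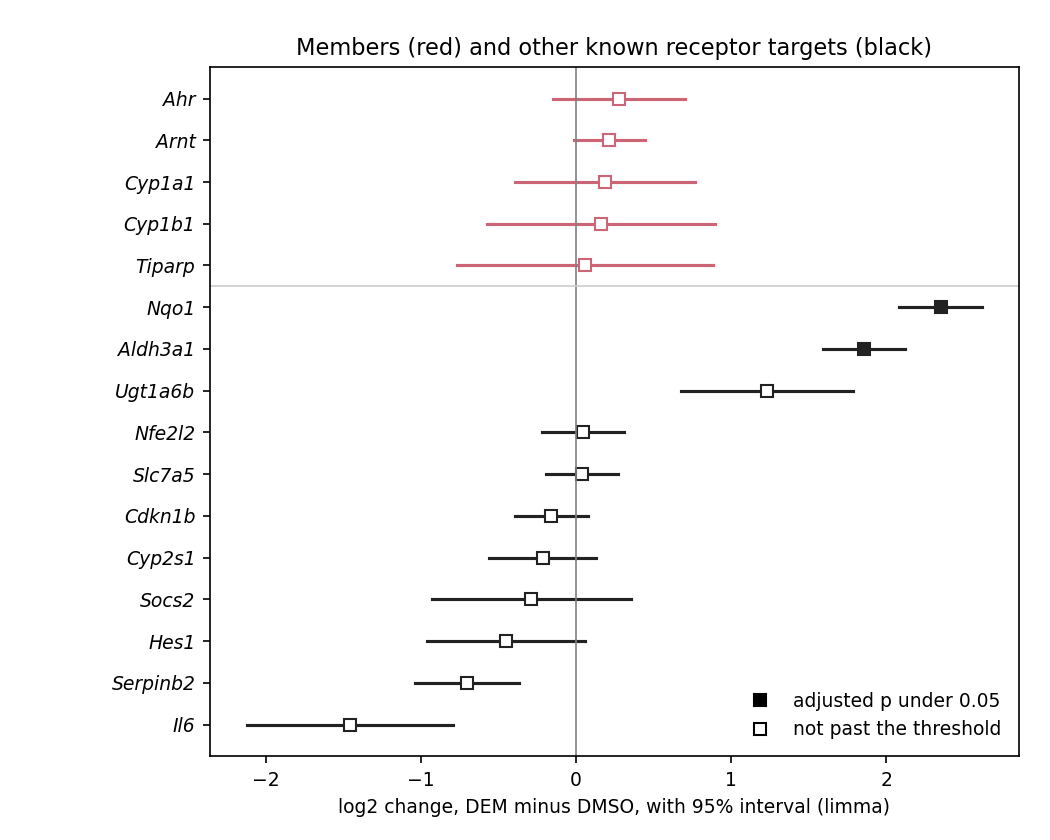
Log2 change, DEM minus DMSO, with the 95% interval from limma for the 5 tested members (red) and 11 of the 12 other tested receptor targets (black, without Gsta1, which has only a bound); filled squares passed an adjusted p of 0.05. The intervals of all 5 members include 0, while Nqo1 at 2.35 and Aldh3a1 at 1.85 stand to the right.

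Transcripts of the chaperones that hold the receptor ready in the cytoplasm did not pass the test. Of 7 such genes tested, 0 were called by limma, beside 1.22% of all genes tested, and the median log2 change was 0.08. An unadjusted p under 0.05 was reached by 1 gene of the 7, beside 19.2% of all genes. That gene was Stip1, an organiser of the HSP70 and HSP90 chaperones, at 0.28 ± 0.08 (limma adjusted p = 0.195). Ptges3, the HSP90 co-chaperone p23, had 0.17 ± 0.10.

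Coactivators and corepressors that act with the receptor on DNA were likewise not called. Of 10 tested, each by its brightest probe, limma called 0 and 0 had an unadjusted p under 0.05, with a median of 0.07. Ncoa1, a steroid receptor coactivator, had a log2 change of 0.26 ± 0.16, and Med1, a Mediator subunit, −0.21 ± 0.08. Med1's other probes gave −0.40 and −0.05. Ncoa2 had 0.06 by its brightest probe. Its other probes, each fitted on its own, gave 0.48 ± 0.18 (limma adjusted p = 0.263) and 0.01. Of 8 genes of crosstalk and receptor turnover, limma called 0 and 3 had an unadjusted p under 0.05 (median 0.09). Over all genes tested limma called 1.22%, and 19.2% had an unadjusted p under 0.05. Relb, an NF-kB subunit that can pair with AHR, had −0.52 ± 0.09 (limma adjusted p = 0.0842) and was called in 2 of the 16 alternatives. Esr1, the oestrogen receptor alpha gene, had 0.49 ± 0.09 (limma adjusted p = 0.0936) and was called in 0 of them.

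Of 16 relatives of AHR in the bHLH-PAS and PAS families, 9 could be tested: 0 were called higher, 1 lower and 8 missed the threshold (median 0.15). Over all genes tested 0.714% were called higher and 0.508% lower. The gene called lower was Per2, a repressor of the circadian clock, which read 24.8 and 27.8 in DMSO and 8.20 and 5.47 in DEM. It was not well above background in DEM and was at least 1.78-fold lower there. It entered the test only through its DMSO arrays. Its limma adjusted p (0.0463) therefore rests on DEM values below background and is no support for the fall. Per2 lost its call after normexp (log2 change −0.38, limma adjusted p = 0.0703) and with no filter on dim probes (0.215). Its call was also lost without either DMSO array. Of the relatives well above background on all 4 arrays, Arntl2, a clock relative of Arnt, had −0.37 ± 0.11 and Per1 0.27 ± 0.10.

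A list of P450 partners and haem genes holds electron donors, the first enzyme of haem synthesis, Hmox1, which breaks haem down, and the epoxide hydrolase gene Ephx1. All 7 of its genes were tested: 3 were called higher, 0 lower and 4 missed the threshold, with a median of 0.54. Over all genes tested 0.714% were called higher and 0.508% lower, and this list was chosen with earlier results of these data known. Cyb5a, the cytochrome b5 that can pass an electron to P450s, read 20200 and 17200 in DMSO and 51000 and 51300 in DEM, a rise of 2.67-fold (1.41 ± 0.10 in log2; limma adjusted p = 0.0325). Without DMSO replicate 1, DMSO replicate 2 or DEM replicate 2 its adjusted p was 0.168, 0.211 and 0.0554. Hmox1 read 6580 and 5430 in DMSO and 138000 and 150000 in DEM, which is 4.55 ± 0.13 higher on the log2 scale (limma adjusted p = 0.00442), and its adjusted p was 0.0701 and 0.127 without DMSO replicate 1 and 2. With no filter on dim probes none of the called genes of this group passed. Alas1, the first enzyme of haem synthesis, had 0.81 ± 0.09 (limma adjusted p = 0.0499). Fitted with every probe on its own, its dimmer probe gave 0.95 ± 0.09 and passed (limma adjusted p = 0.0358). The brighter probe missed the threshold in that fit (limma adjusted p = 0.0511). Counting the brighter probe there, Alas1 was called in 7 of the 16 alternatives. Leaving out any single array ended the call. Por, the reductase on which all these P450s depend, was named after its value was seen and had −0.06 ± 0.10.

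Other drug-metabolising P450 genes were mostly below detection. Of 13 listed, 10 had probes that stayed under that level on all 4 arrays and 3 were tested, with 0 called and 0 at an unadjusted p under 0.05 by limma (median 0.06). Cyp4a10, a fatty acid hydroxylase, had −0.23 ± 0.16 and Cyp2j6, an arachidonic acid epoxygenase, 0.06 ± 0.21.

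The member with the largest change, Ahr, was compared with 10542 named genes that were well above background on all 4 arrays, by the Euclidean distance of their centred log2 levels over the 4 arrays. The nearest were A930004D18Rik (distance 0.01), Ncoa1 (0.02), 4930430F08Rik (0.03), Chml (0.03) and Tug1 (0.03). With 4 arrays such closeness is common, and 487 genes lay within 0.2 of Ahr.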

How the data were processed

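Levels of mRNA were measured in 4 samples of Hepa1c1c7 on 1-colour Agilent arrays. Per the file headers, the deposited processed signal is an intensity on a linear scale that Feature Extraction 10.7.3.1 (protocol GE1_107_Sep09, design annotated on mm9) made after its own background subtraction. The authors' deposited value table holds the same intensity for all 45018 spots. All 4 arrays shared 1 slide and 1 scan time per the headers, and their number limits the precision.

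Processed signals went to log2, less the 75th percentile of the array's 43379 non-control spots. Spots flagged as outliers were dropped and the spots of a probe averaged. Testing required a probe to be well above background on 2 or more arrays; each gene took its brightest such probe. Names came from RefSeq (GRCm38.p6), which gave 26690 of 41174 probes 1 symbol. Probes without a symbol were grouped by the file's accession and count as genes.

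DEM was compared with DMSO in limma 3.58.1 (R 4.3.3; lmFit and eBayes over 15537 genes, Benjamini-Hochberg, threshold 0.05), and the fit was checked on simulated data. Named genes are all members, and from each list every called gene and the 2 with the largest change among those well above background on all 4 arrays. Members and lists were chosen with earlier results of these data known. Normexp used the median spot signal with an offset of 50.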

Additional observations from a re-analysis of the deposited data

How the results depend on the processing

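Across 16 alternatives the 5 tested members gave 80 log2 changes, of which 0 were called (lowest limma adjusted p 0.129) and 6 turned negative: Cyp1a1 −0.066, Cyp1b1 −0.13 and Tiparp −0.31 without DEM replicate 2, Cyp1b1 −0.10 and Tiparp −0.17 without DMSO replicate 1, and Tiparp −0.017 under spike-in scaling. Leaving out 1 array gave −0.066 to 0.44 for Cyp1a1, −0.13 to 0.45 for Cyp1b1 and −0.31 to 0.43 for Tiparp. The count of members called stayed at 0 throughout. Over all genes limma called 190, but 93 after quantile normalization, 567 after median scaling, 572 after spike-in scaling, 617 after normexp, 0 with no filter on dim probes (at an unadjusted p under 0.05, 1246 were higher and 1919 lower), 426 with the filter on all 4 arrays, 726 with an intensity trend and 882 with a robust one. Leaving out 1 array gave 0 to 121 calls, and the lone sample of a group is then assumed to vary like the other group. Rises were 58.4% of the calls, against 71.3% after median scaling, which put the median of all genes at 0.14, and 34.6% after spike-in scaling.

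With the replicate number as a block, 143 genes and 0 members were called. The standard error fell from 0.16 to 0.07 for Ahr and from 0.31 to 0.10 for Tiparp, and 2 members had an unadjusted p under 0.05 (Ahr 0.0237, Arnt 0.0434, with limma adjusted p of 0.129 and 0.168). The deviations of same-numbered arrays correlated at r = 0.14 across the 15537 genes tested and at r = 0.42 across the 14576 well above background on all 4 arrays; genes are not independent replicates, and with 2 pairs this does not settle whether the numbers pair the samples. Under the block Per2 (limma adjusted p = 0.0621) and Alas1 (0.0594) missed the threshold and Il6 passed it (0.0488). For Ahrr and Cyp1a2, signal below background sets the limit.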

Other observations

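Differences between the arrays of one group that repeat in the other group reached well beyond the receptor's targets. Among the 14576 genes well above background on all 4 arrays, 67.2% had array 2 minus array 1 of the same sign in DMSO and DEM. In 182 genes both differences were over 0.5 on the log2 scale with the same sign, and in 22 genes they were over 0.5 with opposite signs. The following genes have large repeated differences and were chosen after their values were seen. Saa3, an acute-phase serum amyloid, read 144 and 39.9 in DMSO and 145 and 39.9 in DEM. Akr1b7, an aldo-keto reductase, read 52.7 and 16.9 in DMSO and 48.4 and 19.2 in DEM, and the stromelysin gene Mmp3 read 1040 and 417 in DMSO and 1070 and 461 in DEM. In the other direction, Ogn, a matrix proteoglycan, read 106 and 235 in DMSO and 101 and 236 in DEM. The chemokine gene Ccl17 read 23.7 and 49.7 in DMSO and 24.8 and 43.2 in DEM, and Inhba, an activin subunit, read 1670 and 2730 in DMSO and 1180 and 1920 in DEM. The change with DEM was −0.04 for Saa3, −0.01 for Akr1b7, 0.05 for Mmp3, −0.07 for Ogn, −0.11 for Ccl17 and −0.55 for Inhba, none of them called by limma.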
